A study of Mus musculus with 18 samples.

Results

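The effect of losing Cav1 in mouse liver was set against its effect in adipose tissue, transcript by transcript. For each probe the difference of effects was taken as the knockout (KO) minus wild-type (WT) change in liver minus the same change in adipose tissue, on a log2 scale. A positive difference means that the transcript changed upward in liver relative to adipose tissue. The comparison used 12 of the 18 arrays of the series. Probes entered when the detection p was under 0.05 on 3 or more of 6 arrays in liver and likewise in adipose tissue, which kept 10941 of 45908 probes. In liver 12565 probes met that limit and in adipose tissue 15959, so that 1624 and 5018 probes measured in 1 tissue only could not be compared. The limit counts WT and KO arrays together, so a probe detected in the WT or KO group alone could also pass.

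The study hybridised total RNA of WT mice and of mice with the genotype Cav1 KO to Illumina Mouse-6 V1 bead arrays. The groups were liver WT (replicates 1, 2 and 3), liver KO (1, 2 and 3), adipose WT (1, 2 and 4) and adipose KO (2, 3 and 5). Food was withdrawn for 24 hours before liver was taken and for 11 hours before adipose tissue was, so tissue and length of fasting cannot be told apart in the comparison. The allele, strain, age and fat depot were not given in the sources used here. Whether each array stands for its own animal is not stated, and p-values therefore reflect only the variation among these samples, some of which may be technical.

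Caveolin-1, the product of Cav1, forms with other caveolins and cavins the coat of caveolae, small pits of the plasma membrane. Caveolae are dense in adipocytes and endothelial cells, where they take part in lipid handling, membrane tension and signalling, and are sparse in hepatocytes. Caveolin-1 also binds and restrains endothelial nitric oxide synthase. In a whole tissue, fewer cells of a type and less RNA per cell cannot be told apart.

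Between 12068 and 13123 probes were detected per liver array and between 14869 and 16965 per adipose array, and 3 arrays per group limit the precision. The adipose arrays lay on 1 slide with WT and KO interleaved, and liver WT 1 lay on a slide of its own. Fabp4, the 1 of 10 adipocyte markers with a named probe, had a log2 signal of 10.61 to 11.34 in adipose tissue and 5.52 to 6.05 in liver. Apoa1, a hepatocyte marker, was at 15.17 to 15.43 in liver and 7.42 to 9.20 in adipose tissue. Markers set 2 adipose arrays apart. The mesothelial genes Upk3b and Wt1 were at 5.60 and 5.09 on adipose WT 1 and at 7.65 to 11.86 on the other 5 arrays. The hepatocyte gene Apoa2 was at 10.01 on adipose KO 5 and at 5.85 to 6.95 on the other 5. Gene names were inferred from numbers inside the probe names, and a single name can be wrong. They cover 3730 of the probes compared and 3397 genes, each taken at its brightest probe.

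Cav1 fell in both tissues, from very different starting levels. In adipose tissue its log2 signal fell from 14.92, 15.32 and 15.39 on the WT arrays to 10.56, 11.37 and 11.35 on the KO arrays. On the liver arrays the WT values were 6.25, 6.41 and 6.58 and the KO values 5.53, 4.93 and 4.68, with detection on 1 of 3 KO arrays. The groups did not overlap in either tissue. The fall was -4.12 ± 0.26 (SE) in adipose tissue (17.3-fold) and -1.37 ± 0.26 in liver (2.58-fold), with limma adjusted p of 1.12e-06 and 0.0132. The difference of 2.75 had an adjusted p of 0.00408. The liver WT signal lay near background, so a fall as large as that in adipose tissue could not have been seen in liver. The probe passed the detection limit in liver through the WT arrays, where it is high. The liver fall is that of a dim probe and depended on the background correction, being -0.23 (adjusted p = 0.682) with the mean and SD of the control probes and -0.56 (adjusted p = 0.119) with no correction. It also missed the threshold without liver WT 3, KO 2 or KO 3 (adjusted p = 0.0667, 0.0603 and 0.0634), whereas the adipose fall lay between -4.45 and -3.87 over all alternatives. Where the probe lies relative to the deleted part of the gene was not given in the sources used here.

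The knockout effect differed between the tissues for 117 of 10941 probes (1.07%) at a Benjamini-Hochberg adjusted p under 0.05 in limma, 65 with a positive difference (0.594%) and 52 with a negative one (0.475%). Before adjustment 1632 probes (14.9%) lay under 0.05, against 547 for uniform p-values. The knockout effect itself was called for 433 probes in liver (3.96%), 241 higher in KO (2.2%) and 192 lower (1.75%). In adipose tissue it was called for 309 (2.82%), 142 higher (1.3%) and 167 lower (1.53%). Of the 62 called in both tissues, 59 moved the same way and 3 in opposite directions. The called differences had a median size of 1.55 and none was under 0.92, while the median size over all probes was 0.27. Across all probes the liver and adipose effects correlated with r = 0.274, a description over probes that share arrays within each tissue.

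The 117 probes fell into groups by which tissue effect passed its own test. In 52 (0.475% of those compared) the effect was called in liver and not in adipose tissue, 31 higher and 21 lower in KO. In 44 (0.402%) it was called in adipose tissue and not in liver, 22 higher and 22 lower. A further 3 (0.0274%) were called in opposite directions, 8 (0.0731%) in the same direction with different sizes, and 10 (0.0914%) in neither tissue taken by itself. The 2 effects had opposite signs in 85 of the 117 (72.6%), against 42.7% of all probes compared, and a large difference makes opposite signs more likely by construction. Of the 117 probes, 39 carried a gene name. At the brightest probe of each gene, 36 of 3397 genes (1.06%) had a called difference, 18 positive and 18 negative. Of these, 17 were called in adipose tissue alone, 10 in liver alone, 1 in opposite directions, 2 in the same direction and 6 in neither. The 17 include Mup1, the brightest probe of every liver array, whose liver values the normalization made equal, so that no change there could show.

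**Figure D1:**
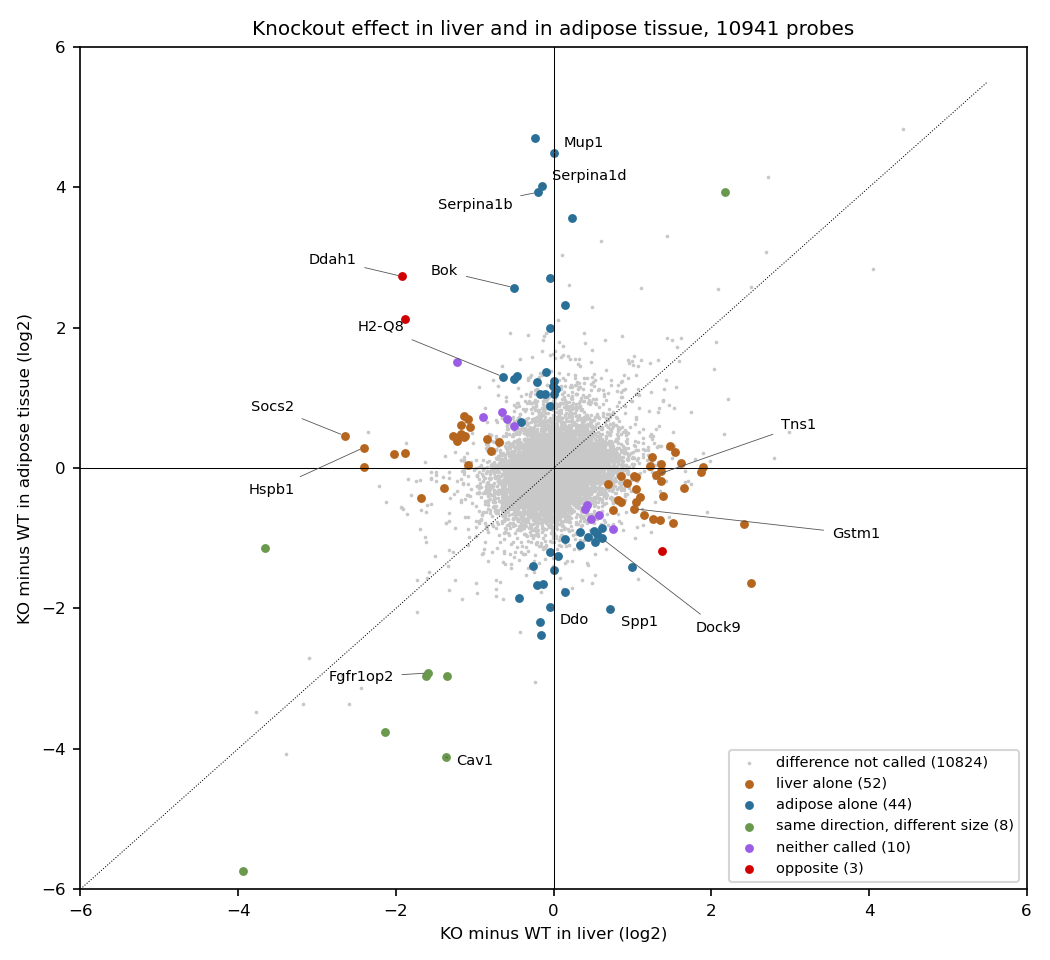
KO minus WT (log2) in liver (x axis) against adipose tissue (y axis) for each of the 10941 probes, coloured by which tissue effects were called among the 117 with a called difference. The dotted line marks equal effects; Ddah1 and 2 unnamed probes lie in opposite quadrants, most coloured probes lie near an axis, and Cav1 and Fgfr1op2 lie below the line at the lower left.

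The number of calls rested on single arrays. It was 44, 55 and 35 without liver WT 1, 2 and 3, and 192, 34 and 27 without liver KO 1, 2 and 3. It was 43, 56 and 115 without adipose WT 1, 2 and 4, and 67, 46 and 194 without adipose KO 2, 3 and 5. Without adipose WT 1 and adipose KO 5 together, a setting chosen after the markers had been seen, 101 probes were called, of which 59 were among the 117. Ddah1, Bok and Dock9 were called under each of the 25 alternatives run for them. Mup1, Serpina1d and Serpina1b were also called under each of their 24 or 25, which is a description only. The Serpina1 probes passed the detection limit in adipose tissue through the KO arrays, where they are high, and the liver values of Mup1 add no spread. The calls of the other named genes were kept in between 4 (Aig1) and 24 (H2-Q8 and Fgfr1op2) alternatives.

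Ddah1 was the named gene called in opposite directions. It encodes dimethylarginine dimethylaminohydrolase 1, which degrades asymmetric dimethylarginine, an endogenous inhibitor of nitric oxide synthases. In liver its log2 signal went from 10.44, 9.94 and 10.37 on the WT arrays to 8.85, 7.95 and 8.21 on the KO arrays. On the adipose arrays the WT values were 6.50, 6.92 and 7.29 and the KO values 9.70, 10.01 and 9.18. Every KO array lay below every WT array in liver and above every WT array in adipose tissue. The liver fall was -1.92 ± 0.28 (3.78-fold, limma adjusted p = 0.00305) and the adipose rise 2.73 ± 0.28 (6.62-fold, adjusted p = 0.000145). The difference of -4.64 ± 0.40 was the largest among named genes (adjusted p = 0.000267), and it ranged from -5.26 to -3.19 over 25 alternatives.

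The other 2 probes called in opposite directions have no gene name here. Probe scl22489.6_38-S followed the pattern of Ddah1, with 10.59, 10.26 and 10.60 on the liver WT arrays against 8.99, 8.34 and 8.46 in liver KO. In adipose tissue it stood at 8.40, 8.0 and 8.36 on the WT arrays and rose to 10.72, 10.63 and 9.78 on the KO arrays. Its effects were -1.88 in liver and 2.13 in adipose tissue. Probe scl51003.6.1_57-S went the other way, with a liver effect of 1.38 and an adipose effect of -1.18. It was not detected on any adipose KO array, so its adipose fall is from a weak signal to background. It passed the detection limit in adipose tissue only through the WT arrays, where it is high, so its call is a description.

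**Figure D2:**
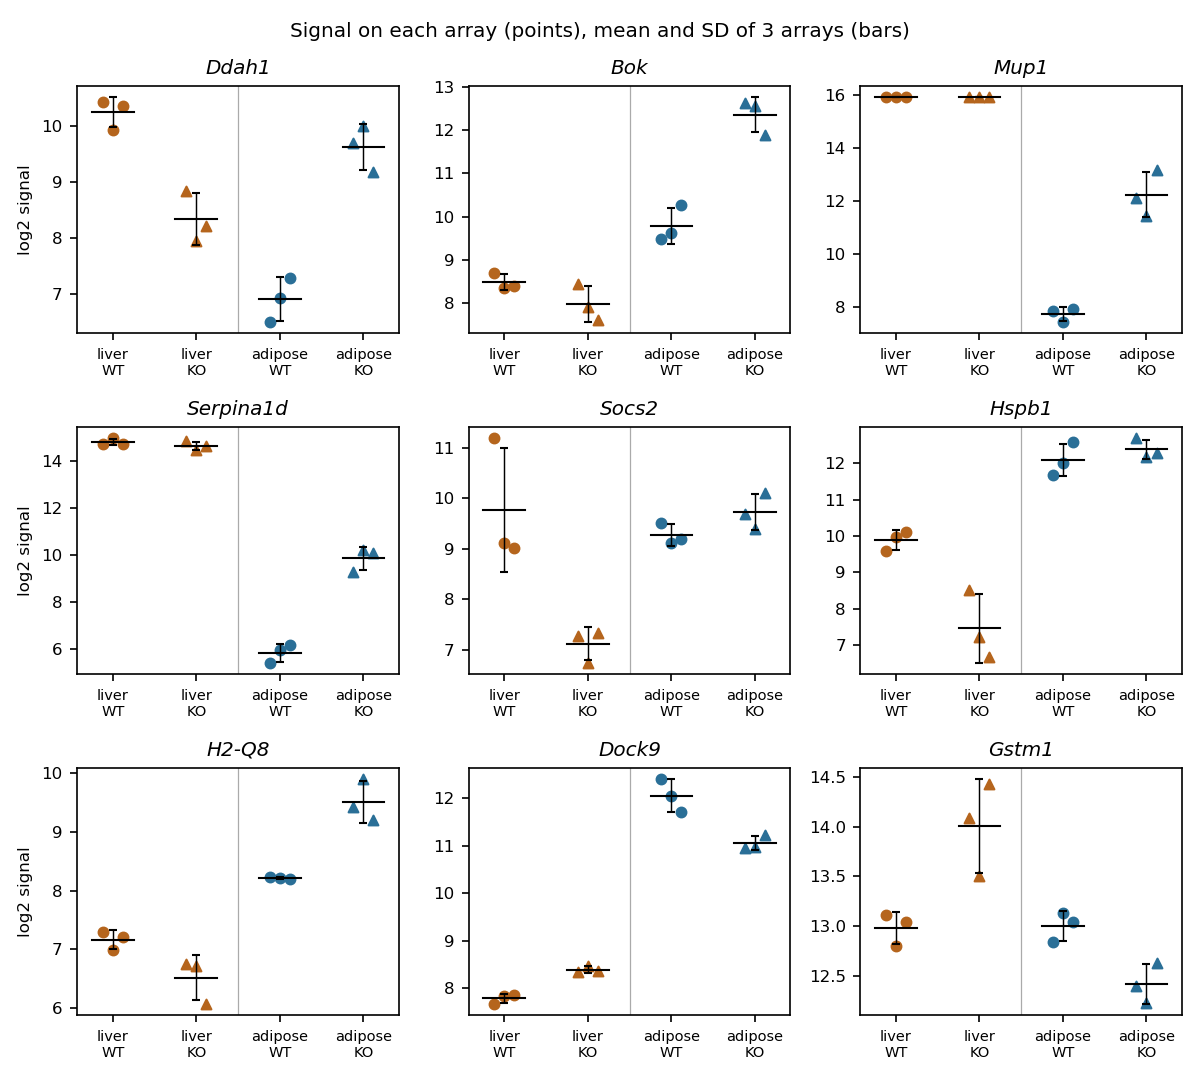
Log2 signal of 9 genes on each of the 12 arrays (points; circles WT, triangles KO; brown liver, blue adipose tissue), with the mean and SD of each group of 3. Ddah1 falls in liver and rises in adipose tissue, Mup1 and Serpina1d rise from low levels in adipose tissue, with Mup1 near the top of the array range in liver, and Socs2 and Hspb1 fall in liver alone.

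Among named genes called in adipose tissue and not in liver, the largest rises were those of Mup1, Serpina1d and Serpina1b, which hepatocytes express strongly. The unnamed probes scl32906.13.1_13-S (4.71 ± 0.64) and GI_40254614-S (3.57 ± 0.22) rose there by similar amounts. Mup1 encodes a major urinary protein, a pheromone carrier secreted by the liver, and Serpina1b and Serpina1d encode mouse forms of alpha-1-antitrypsin, a plasma protease inhibitor. Mup1 stood at 7.85, 7.45 and 7.95 on the adipose WT arrays and at 12.12, 11.45 and 13.16 on the KO arrays, a rise of 4.49 ± 0.32 (22.4-fold, limma adjusted p = 3.11e-06). In liver it was the brightest probe of each array, with raw signals of 60607.7, 65651.8 and 64705.1 in WT and 58076.5, 59739.7 and 61597.5 in KO. Quantile normalization within liver therefore set it to 15.91 on all 6 arrays. A change there could not have been seen, and its difference of -4.49 rests on adipose tissue. The fit shares 1 spread over the 4 groups, and these equal liver values add none to it. The SE and adjusted p of Mup1 therefore understate the spread among its adipose arrays (SD 0.26 in WT and 0.86 in KO). Serpina1d was at 5.42, 5.95 and 6.17 in adipose WT and at 9.29, 10.22 and 10.08 in adipose KO. Its adipose effect was 4.02 ± 0.25 and its liver effect -0.15 ± 0.25, a difference of -4.17 (adjusted p = 0.000267). Serpina1b was at 5.45, 5.37 and 6.43 in adipose WT and at 9.11, 10.17 and 9.78 in adipose KO. Its effects were 3.93 ± 0.29 in adipose tissue and -0.20 ± 0.29 in liver, a difference of -4.13 (adjusted p = 0.000404). With the mean and SD of the control probes as background, the differences shrank to -1.51 for Serpina1d and -1.40 for Serpina1b and were still called. Each of the Serpina1 probes was detected on 1 of 3 adipose WT arrays and on all 3 KO arrays. Both probes passed the detection limit in adipose tissue only through the KO arrays, where they are high, so their calls are a description.

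The levels of other hepatocyte genes were measured beside these. Mup1 and both Serpina1 genes were high on all 3 adipose KO arrays. Apoa1 was at 7.78, 7.42 and 9.20 on the adipose KO arrays against 7.85 to 8.60 in WT. Apoa2, Serpina1a and Cps1 were at 10.01, 6.79 and 6.54 on adipose KO 5, and on KO 2 and KO 3 they lay between 4.73 and 5.95. The summed signal of the 5 hepatocyte markers with a probe was 13.00 to 14.06 (log2) on the WT arrays and 12.66 to 13.00 on the KO arrays, most of it from Pck1, which adipocytes also express. Without adipose KO 5 the difference was -4.04 for Mup1, -4.11 for Serpina1d and -4.13 for Serpina1b. All 12 fits that left out 1 array called these 3 genes, which is a description and no further support. The Serpina1 probes had been selected through the KO arrays, and the equal liver values of Mup1 add no spread. Mup and Serpina1 genes are families of close copies, and a probe may read several of them.

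**Figure D3:**
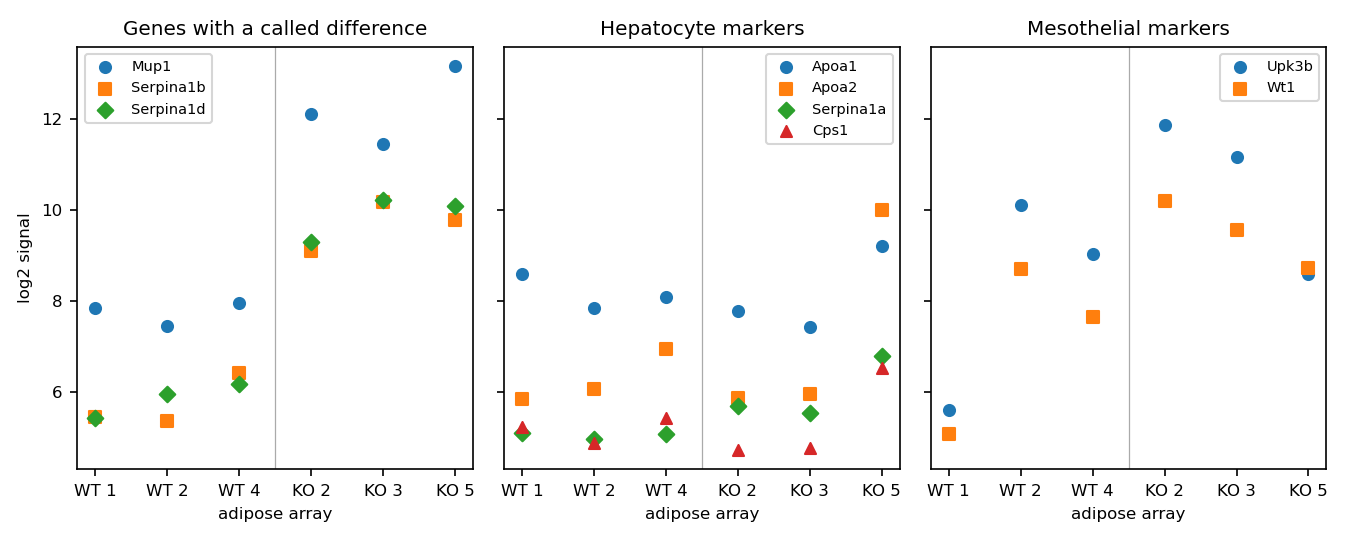
Log2 signal on the 6 adipose arrays of Mup1, Serpina1b and Serpina1d (left), of 4 hepatocyte markers (middle) and of 2 mesothelial markers (right). The first 3 genes are high on all KO arrays, the hepatocyte markers are highest on KO 5, and the mesothelial markers are lowest on WT 1.

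The 2 Serpina1 genes rose together, and their promoters show how alike the copies are. The 250 bases before each start site, from the RefSeq annotation of GRCm38.p6, lie at chr12:103738190-103738439 and chr12:103773634-103773883, both on the minus strand, and are printed 5′ to 3′ with the letters GTTAAT in capitals.
Serpina1b: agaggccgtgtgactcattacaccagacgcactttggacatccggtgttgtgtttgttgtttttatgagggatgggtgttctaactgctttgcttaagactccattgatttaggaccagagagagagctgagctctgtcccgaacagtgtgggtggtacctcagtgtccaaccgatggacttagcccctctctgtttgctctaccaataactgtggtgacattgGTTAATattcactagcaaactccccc
Serpina1d: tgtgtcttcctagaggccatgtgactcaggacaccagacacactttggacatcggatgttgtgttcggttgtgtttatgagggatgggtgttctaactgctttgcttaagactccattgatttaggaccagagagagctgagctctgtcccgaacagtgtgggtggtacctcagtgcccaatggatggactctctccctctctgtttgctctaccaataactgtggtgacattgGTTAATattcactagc
Aligned end to end, 223 of 262 columns were identical (85.1%). GTTAAT is part of the site bound by HNF1 factors, which drive many liver genes. It begins 26 bases before the start of Serpina1b and 16 bases before that of Serpina1d. On either strand it occurs in 6.43% of 32851 mouse promoter windows, each of the 250 bases before the start. The full palindromic HNF1 motif, of which GTTAAT is the start, was not found in either window and occurs in 0.00913% of all windows.

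Bok, a member of the BCL2 family that acts in apoptosis, rose in adipose tissue and not in liver. Its log2 signal was 9.48, 9.62 and 10.26 in adipose WT and 12.62, 12.56 and 11.89 in adipose KO. The liver values were 8.69, 8.35 and 8.39 on WT arrays against 8.43, 7.90 and 7.61 on KO arrays, and these groups overlapped. The adipose rise was 2.57 ± 0.27 (5.93-fold, limma adjusted p = 0.000149), the liver effect -0.50 ± 0.27 and the difference -3.07 (adjusted p = 0.00271). Of the 10 genes of apoptosis and mitophagy compared, Bok was the 1 with a called difference, against 1.06% of all named genes. In the same list Casp8, an initiator caspase, fell in liver (-0.78, adjusted p = 0.0256; adipose 0.06), and Pink1, a kinase of mitochondrial quality control, fell in adipose tissue (-0.50, adjusted p = 0.041; liver 0.13), with no called difference for either.

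A group of 14 H2 genes of the major histocompatibility complex was formed after the values were seen. Of these, 4 had a called difference, each negative, against 0.53% of all named genes with a negative one. Each of the 4 rose in adipose tissue and had no called change in liver. H2 genes lie on chromosome 17 and encode mostly class I molecules, which present peptides to T cells and natural killer cells. H2-Q8 stood at 8.23, 8.21 and 8.19 in adipose WT and 9.42, 9.90 and 9.21 in adipose KO, and at 7.29, 6.98 and 7.21 in liver WT against 6.75, 6.72 and 6.07 in liver KO. Every KO array lay above the WT arrays in adipose tissue and below them in liver. Its effects were 1.3 ± 0.21 in adipose tissue (limma adjusted p = 0.00533) and -0.64 ± 0.21 in liver (adjusted p = 0.115), a difference of -1.95 (adjusted p = 0.0126) called in 24 of 25 alternatives. H2-T23, the class Ib gene of Qa-1, rose by 1.24 ± 0.16 in adipose tissue, from 11.93, 12.42 and 11.89 to 13.20, 13.45 and 13.33, and its liver effect was 0.00 ± 0.16. Its difference of -1.24 (adjusted p = 0.0261) was called in 14 of 25 alternatives, and a second probe gave -1.12 (adjusted p = 0.0568).

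H2-Q5 and H2-Q2, named after their values were seen, had differences of -1.18 (adjusted p = 0.0245 in limma) and -0.93 (adjusted p = 0.0401). Of the 14 H2 genes compared, a group also formed after the values were seen, 8 were called higher in adipose KO and none lower, and none was called in liver. Across all named genes, 46 of 3397 (1.35%) were called higher in adipose tissue. The median effect of the 14 was 0.93 in adipose tissue and -0.03 in liver. The difference was called for 4, against 1.06% of all named genes. H2 class I genes share much sequence, so that their probes are not independent. H2-Q7 and H2-Ke6 had negative effects in both tissues, and H2-Ab1 had positive ones of similar size (1.07 in liver and 1.13 in adipose tissue), none of them called. The 3 macrophage markers with a probe had a summed log2 signal of 11.25 to 12.75 on the adipose WT arrays and 12.16 to 13.60 on the KO arrays, and the effects of Lyz2 (0.60) and Csf1r (0.69) were not called. Their part in the H2 results was not tested. In the wider list of interferon response and antigen presentation, Irf1, an interferon-induced transcription factor, rose in liver (0.99, limma adjusted p = 0.0094). Its adipose effect was -0.15, and its difference of 1.14 was not called (limma adjusted p = 0.05). Irf7, Irf9 and Ifit3 were called in neither tissue. The median difference over the 15 genes of that list was -0.10, and over all named genes 0.00.

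**Figure D4:**
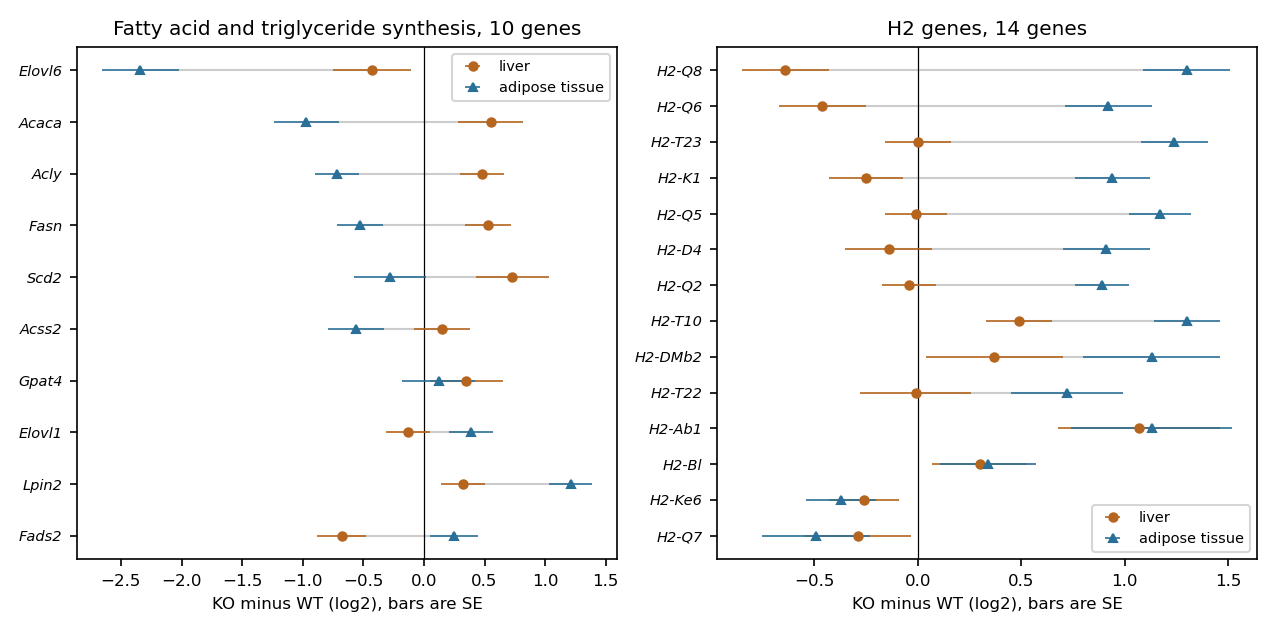
KO minus WT (log2, bars are SE) in liver (circles) and adipose tissue (triangles) for the 10 genes of fatty acid and triglyceride synthesis (left) and the 14 H2 genes (right). Acaca, Acly and Fasn lie right of 0 in liver and left of 0 in adipose tissue, and 12 of the H2 genes lie right of 0 in adipose tissue.

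Of 10 genes of fatty acid and triglyceride synthesis compared, 1 had a called difference, against 1.06% of all named genes. That gene was Acly, ATP citrate lyase, which supplies cytosolic acetyl-CoA. It was at 10.69, 10.34 and 10.34 in liver WT and 10.89, 10.82 and 11.08 in liver KO, and at 15.87, 15.57 and 15.70 in adipose WT against 14.65, 15.19 and 15.14 in adipose KO. The KO arrays lay above WT in liver and below WT in adipose tissue. Its effects of 0.48 ± 0.18 and -0.72 ± 0.18 missed their own thresholds (limma adjusted p = 0.155 and 0.0506) and the difference of 1.19 passed (adjusted p = 0.0432), as it did in 7 of 25 alternatives and in 1 of the 12 that left out an array.

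Acaca, acetyl-CoA carboxylase, had effects of 0.55 in liver and -0.97 in adipose tissue (difference 1.52, limma adjusted p = 0.0854). Fasn, fatty acid synthase, had 0.53 and -0.53 (difference 1.06, adjusted p = 0.0922). For Acly, Acaca and Fasn the 2 effects had opposite signs in all 26 settings, the main one included. Elovl6, which elongates palmitate, fell in adipose tissue by -2.34 ± 0.32 (adjusted p = 0.00131) from 14.06, 13.52 and 13.90 to 10.90, 11.84 and 11.73, and had a liver effect of -0.43 ± 0.32, a difference that missed the threshold (1.91, adjusted p = 0.0644). Lpin2, a phosphatidate phosphatase of triglyceride synthesis, rose in adipose tissue (1.21, limma adjusted p = 0.00336). Its liver effect was 0.32, and its difference was not called. The median of the list was 0.33 in liver and -0.41 in adipose tissue, and the median difference 0.86. The signs were opposite in 7 of 10, against 1451 of 3397 named genes. In 5 of them (Acly, Acaca, Fasn, Scd2 and Acss2) the effect was positive in liver and negative in adipose tissue. In the other 2, Fads2 (-0.68 and 0.25) and Elovl1 (-0.13 and 0.39), it was the reverse.

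Ppargc1b, the coactivator PGC-1beta, which acts on mitochondrial and lipogenic genes, was at 6.77, 6.97 and 7.02 in liver WT and 7.43, 7.56 and 7.48 in liver KO. The adipose values were 9.58, 9.27 and 8.96 on WT arrays and 8.42, 8.58 and 8.80 on KO arrays. The groups did not overlap in either tissue, and the effects of 0.57 and -0.67 gave a difference of 1.25 ± 0.24 (limma adjusted p = 0.0321, called in 14 of 25 alternatives). Fitm2, an endoplasmic reticulum protein of lipid droplet formation, fell in liver by -0.79 ± 0.15 (adjusted p = 0.0132), from 6.10, 5.73 and 6.08 to values not detected on any KO array, a fall of at least 1.46-fold. It passed the detection limit in liver only through the WT arrays, where it is high, so its call is a description. Its adipose effect was 0.24 and the difference -1.02 (adjusted p = 0.0404, called in 8 of 24 alternatives). Fitm2 was the 1 gene with a called difference among 7 of lipolysis, lipid droplets and lipid uptake, against 1.06% of all named genes. Lpl, Plin4, Pnpla2 and Fabp4 were called in neither tissue.

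Among named genes called in liver alone, the largest falls were of Socs2 and Hspb1. The unnamed probe scl28542.7_206-S fell by as much as Hspb1 (-2.41 ± 0.30; adipose 0.01). Socs2, a feedback inhibitor of growth hormone signalling, was at 11.19, 9.12 and 9.01 in liver WT and 7.28, 6.74 and 7.34 in liver KO, with WT 1 standing well above the other WT arrays. The adipose values were 9.51, 9.11 and 9.19 on WT arrays and 9.68, 9.40 and 10.10 on KO arrays, where the groups overlapped. The SD was 1.23 in liver WT and 0.21 to 0.35 in the other groups. With 1 spread shared by the groups, the SE and adjusted p of the liver fall understate the spread in liver WT. The liver fall of -2.65 ± 0.45 (6.29-fold, limma adjusted p = 0.00793) and the adipose effect of 0.46 gave a difference of -3.11 (adjusted p = 0.0425). That call was kept in 13 of 25 alternatives and in 4 of the 12 that left out 1 array, where the difference ranged from -3.48 to -2.40. Other genes of growth hormone, insulin and IGF signalling were compared beside it. Igfbp4, a binding protein that holds IGFs, rose in adipose tissue by 1.05 ± 0.15 (adjusted p = 0.00221) and had a liver effect of 0.00 (difference -1.05, adjusted p = 0.0401). Prlr, the prolactin receptor, had effects of -0.77 in liver and 1.25 in adipose tissue and missed the threshold for the difference (-2.02, adjusted p = 0.0514). Of the 12 genes of this list, 2 had a called difference, both negative, against 0.53% of all named genes with a negative one.

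Hspb1, a small heat shock protein, fell from 9.58, 9.97 and 10.11 in liver WT to 8.52, 7.23 and 6.67 in liver KO. The adipose values were 11.68, 12.00 and 12.57 on WT arrays and 12.68, 12.17 and 12.27 on KO arrays, with overlapping groups. The SD was 0.95 in liver KO and 0.27 to 0.45 in the other groups, so the shared spread understates that in liver KO. The liver fall was -2.41 ± 0.38 (5.33-fold, limma adjusted p = 0.00501), the adipose effect 0.29 and the difference -2.71 (adjusted p = 0.0382), called in 9 of 25 alternatives. Of 13 heat shock and chaperone genes compared, 4 fell in liver and none in adipose tissue. Among all named genes 1.65% fell and 2.06% rose in liver, and 1.44% fell in adipose tissue. The other 3 were Hspa4l (-0.85), Hsp90ab1 (-0.78) and Hsp90aa1 (-0.83), with limma adjusted p of 0.0268, 0.0431 and 0.0489. Their adipose effects were -0.22, -0.24 and -0.40 and their differences were not called, so that Hspb1 alone in the list was shown to differ between the tissues. Hspa4l was dim in liver, with detection p of 0.0594, 0.0675 and 0.0396 on the KO arrays. Its probe met the detection limit in liver only through the WT arrays, where it is high. Its fall, and its place among the 4, is therefore a description. The hemoglobin gene Hba-a1 fell in liver too, from 15.02, 14.07 and 14.15 to 13.85, 12.28 and 11.86 (adjusted p = 0.0455), with an adipose effect of -0.19, and its part in the liver results was not tested.

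Liver rises without an adipose rise included several enzymes. Gstm1, a glutathione transferase of detoxification, was at 13.11, 12.80 and 13.04 in liver WT and 14.09, 13.50 and 14.43 in liver KO. The adipose values were 12.84, 13.13 and 13.04 on WT arrays and 12.40, 12.23 and 12.63 on KO arrays, so that the groups parted in opposite directions. The liver rise was 1.02 ± 0.21 (limma adjusted p = 0.0222), the adipose effect -0.58 ± 0.21 (adjusted p = 0.172) and the difference 1.60 (adjusted p = 0.0281, called in 14 of 25 alternatives). Afmid, arylformamidase of tryptophan breakdown, rose from 9.45, 9.61 and 9.84 to 10.56, 10.51 and 10.62 in liver (0.93 ± 0.16) and had an adipose effect of -0.22. Its difference was 1.15 (adjusted p = 0.0321, called in 12 of 25). Asph, an aspartate beta-hydroxylase, and Cpm, the membrane-bound carboxypeptidase M, each rose by 1.05 in liver, with adipose effects of -0.13 and -0.49 and differences of 1.18 and 1.54 (adjusted p = 0.0463 and 0.0276).

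Tns1, tensin 1 of focal adhesions, had the largest liver rise among the named genes called in liver alone. It rose from 7.86, 7.84 and 8.28 on the WT arrays to 9.57, 9.18 and 9.14 on the KO arrays, a rise of 1.3 ± 0.18 (limma adjusted p = 0.00211), with an adipose effect of -0.10 and a difference of 1.40 (adjusted p = 0.0269, called in 15 of 25 alternatives). Irak1, a kinase that relays interleukin-1 and Toll-like receptor signals, rose in liver from 5.16, 5.59 and 5.32 to 6.14, 6.22 and 6.26 and had an adipose effect of -0.49. Its difference of 1.35 (adjusted p = 0.0142) was called in 21 of 24 alternatives, but its size ranged from 0.22 with the mean and SD background to 2.17 with the authors' values. Irak1 is a dim probe, detected on 1 of 3 liver WT arrays. It passed the detection limit in liver only through the KO arrays, where it is high, so its call and its count of alternatives are a description. Pithd1 fell in liver by -0.69 ± 0.13 and had an adipose effect of 0.37, a difference of -1.06 (adjusted p = 0.0232).

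Dock9, a guanine nucleotide exchange factor for Cdc42, fell in adipose tissue from 12.40, 12.05 and 11.72 to 10.95, 10.98 and 11.23. The liver values were 7.67, 7.83 and 7.85 on WT arrays and 8.33, 8.47 and 8.37 on KO arrays. The WT and KO arrays did not overlap in either tissue and lay in opposite order. The adipose fall was -1.0 ± 0.17 (limma adjusted p = 0.00736), the liver effect 0.61 ± 0.17 (adjusted p = 0.0692) and the difference 1.61 (adjusted p = 0.0105). Such separation is common here, since 28.2% of probes in liver and 19.7% in adipose tissue had WT and KO arrays that did not overlap.

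Spp1, Ddo, Zfp131 and Dhrs7 also fell in adipose tissue and had no called change in liver. Spp1, the secreted matrix protein osteopontin, was at 8.35, 8.31 and 7.34 in adipose WT and 6.78, 5.78 and 5.42 in adipose KO, where it was detected on 1 of 3 arrays. It passed the detection limit in adipose tissue only through the WT arrays, where it is high, so its call and its count of alternatives are a description. It was at 8.03, 8.29 and 8.10 in liver WT and 9.13, 8.45 and 9.01 in liver KO. The adipose fall was -2.01 ± 0.34 (4.02-fold, limma adjusted p = 0.00736), the liver effect 0.72 and the difference 2.73 (adjusted p = 0.0245, called in 15 of 24 alternatives). Ddo, D-aspartate oxidase of peroxisomes, fell in adipose tissue by -1.98 ± 0.24 from 9.87, 9.16 and 8.70 to 7.15, 7.49 and 7.14 and had a liver effect of -0.05 (difference 1.93, adjusted p = 0.0245). Zfp131, a zinc finger protein, fell by -1.40 ± 0.16 (liver -0.26, difference 1.14, adjusted p = 0.0329). Dhrs7, a short-chain dehydrogenase, fell by -0.86 ± 0.19 and had a liver effect of 0.61 (difference 1.47, adjusted p = 0.0261).

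Smaller rises in adipose tissue alone were those of P3h2, which hydroxylates prolines in collagen, and Aig1, an enzyme that splits branched fatty acid esters. P3h2 rose by 1.23 ± 0.21 (liver -0.21, difference -1.44, limma adjusted p = 0.0401). Aig1 was not detected on any adipose WT array and was detected on all 3 KO arrays, a rise of at least 1.49-fold (liver -0.09, difference -1.46, adjusted p = 0.0463). Aig1 passed the detection limit in adipose tissue only through the KO arrays, where it is high, so its call is a description and supports nothing further. Both were dim probes. Their calls were kept in 7 and 4 of 24 alternatives.

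Dapk1, a kinase of cell death, and the receptor tyrosine kinase Erbb2 were called in neither tissue and differed between them. Dapk1 had effects of -0.90 in liver and 0.73 in adipose tissue (difference -1.63, limma adjusted p = 0.043). Erbb2 had effects of -0.59 and 0.70 (difference -1.29, adjusted p = 0.0401). Ndufaf4, an assembly factor of respiratory complex I that was named after its values were seen, showed the reverse, with effects of 0.42 and -0.52 (difference 0.94, adjusted p = 0.0494). For these 3 genes the WT and KO arrays did not overlap in either tissue, and the calls were kept in 6 to 8 of 24 or 25 alternatives. Outside the brightest probes, 2 probes of Tmed4 and 1 of Vmp1 were called, with differences of -1.74, -1.13 and -1.78, while the brightest probe of each gene was not.

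**Figure D5:**
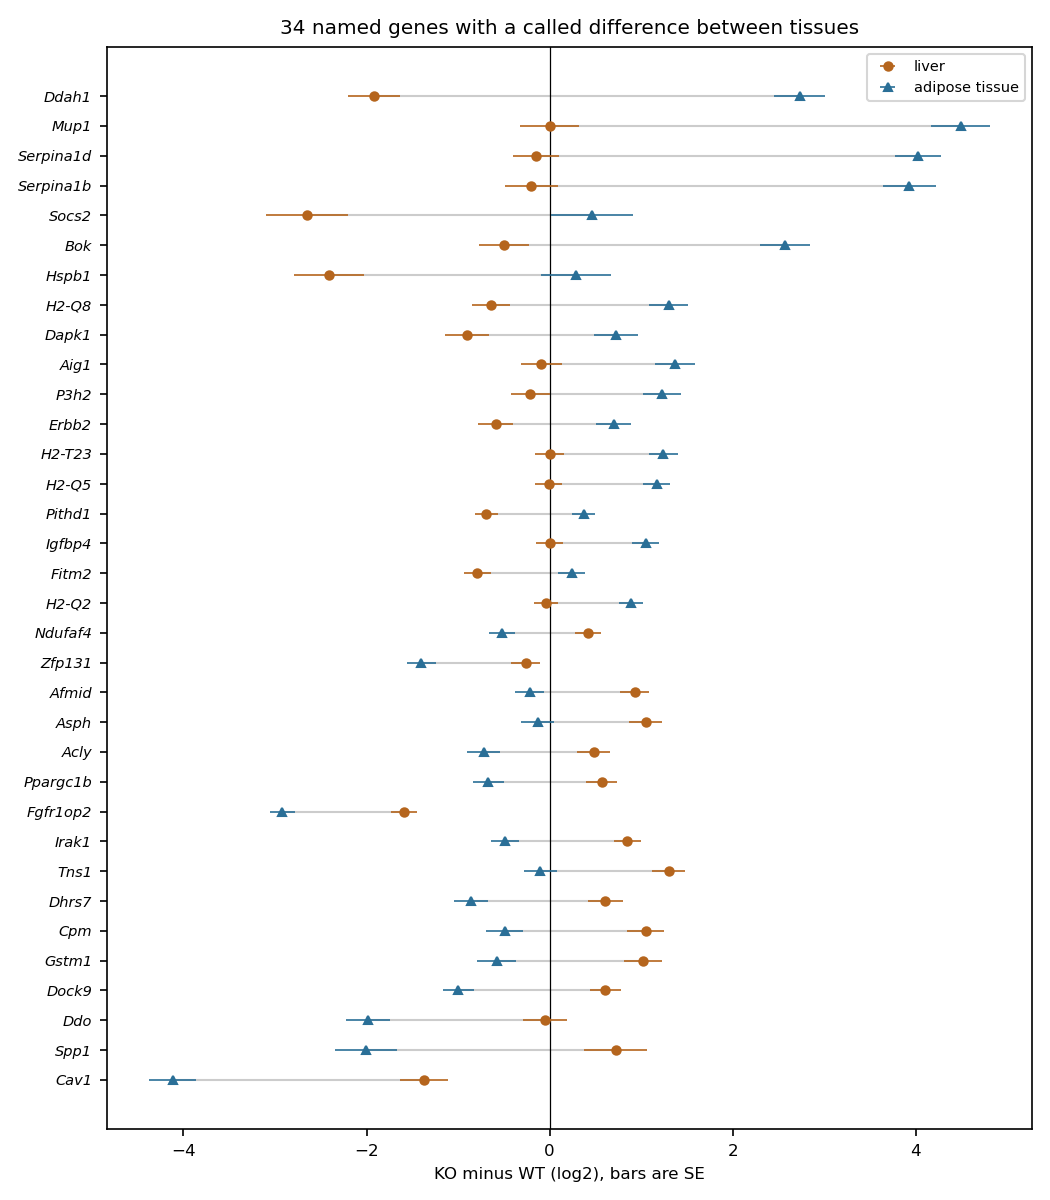
KO minus WT (log2, bars are SE) in liver (circles) and adipose tissue (triangles) for 34 of the 36 named genes with a called difference, ordered by the difference. For Ddah1 the symbols lie far apart on either side of 0, and for Cav1 and Fgfr1op2 both lie well left of 0.

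Fgfr1op2 was, beside Cav1, the named gene that fell in both tissues by different amounts. Both lie on chromosome 6. Fgfr1op2 went from 9.46, 9.54 and 9.51 to 7.89, 7.93 and 7.92 in liver and from 11.21, 11.31 and 11.22 to 8.58, 8.24 and 8.15 in adipose tissue. The falls were -1.59 ± 0.14 and -2.92 ± 0.14 (limma adjusted p = 3.96e-05 and 1.08e-07), and the difference 1.33 (adjusted p = 0.00906). A second, dimmer probe gave -0.63 in liver and -0.44 in adipose tissue, with a difference of -0.19, so that the probes disagreed on the sign of the difference.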

How the data were processed

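Per the file headers, the deposited intensities are mean bead signals that BeadStudio 1.5.1.3 wrote without normalizing them, and the deposited detection p-values give the share of negative controls at or above a signal. A second deposited table holds intensities, on a linear scale, that the authors had normalized. For it the submitters' processing notes list affy, limma, lumi and RMA without saying what each did. In R 4.3.3 with limma 3.58.1, signals were background-corrected by normexp, with the median and median absolute deviation (MAD) of controls inferred from the detection p-values and an offset of 16. The MAD replaced the SD used in earlier processing of these data because a few bright controls inflate the SD (111 to 502 raw units per array against a MAD of 11.7 to 23.0). Values were quantile normalized within each tissue, and 84 control probes were left out. One limma fit of the 4 group means gave both effects and their difference, two-sided, with Benjamini-Hochberg adjustment over 10941 probes. All adjusted p-values are limma's, errors are SE of a log2 difference, and a fold against a group with no detected array is a lower bound.

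Of the numbers inside probe names, 82.6% of 11868 matched a mouse gene ID, against 41.1% to 46.2% when shifted. Named genes were Cav1, the largest called differences in each direction, class and list, and bounds. The probes, lists and named-gene rule were chosen with earlier results of these data known. Same-numbered liver arrays deviated together with r of 0.215, 0.177 and -0.0264, against -0.231 to 0.117 for liver arrays of different numbers. The adipose arrays numbered 2 gave 0.284, against -0.326 to 0.218 for different numbers. These values do not settle whether the arrays were paired. The main fit did not take the numbers as pairs, and a fit with the replicate number as a block called 60 probes. On simulated data of 10941 probes the fit recovered 23% of differences of 1 and 82% of differences of 2 (log2), with 6 false calls. Just inside the detection limit (3 arrays in the weaker tissue) lay 935 probes with a median size of the difference of 0.34, and just outside it 1176 with 0.32. Results of some genes are not reported here. Alternatives are given in the closing section.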

Additional observations from a re-analysis of the deposited data

Results flagged for a closer look

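The following results drew attention because the knockout effect differed between the tissues by a test of the difference itself, with values in log2, liver minus adipose. In all, 117 probes passed that test. Negative differences were those of Ddah1 (-4.64), Mup1 (-4.49), Serpina1d (-4.17), Serpina1b (-4.13), Socs2 (-3.11), Bok (-3.07), Hspb1 (-2.71), H2-Q8 (-1.95) and Dapk1 (-1.63). Smaller ones were those of Aig1 (-1.46), P3h2 (-1.44), Erbb2 (-1.29), H2-T23 (-1.24), H2-Q5 (-1.18), Pithd1 (-1.06), Igfbp4 (-1.05), Fitm2 (-1.02) and H2-Q2 (-0.93). Positive differences were those of Cav1 (2.75), Spp1 (2.73), Ddo (1.93), Dock9 (1.61), Gstm1 (1.60), Cpm (1.54), Dhrs7 (1.47), Tns1 (1.40) and Irak1 (1.35). Smaller ones were those of Fgfr1op2 (1.33), Ppargc1b (1.25), Acly (1.19), Asph (1.18), Afmid (1.15), Zfp131 (1.14) and Ndufaf4 (0.94).

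A control probe outside the comparisons also gave a signal. The probe named NeoR, whose name is that of the neomycin resistance gene, had raw signals of 420.5, 607.9 and 648.3 on the adipose KO arrays (detection p of 0 on each) and of 187, 202.1 and 184.9 on the adipose WT arrays, where it was not detected. On the 6 liver arrays it lay between 96.3 and 112.6 and was not detected. The source of this signal was not tested.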

How the results depend on the processing

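The number of probes with a called difference (117) moved by more than 1.5 times under several settings, and the causes were not tested. It was 237 with the mean and SD of the controls as background (78 shared with the 117), 180 with no background correction (94 shared) and 60 with median centring (53 shared). It was 218 without the filter on dim probes, 208 with a separate variance for each tissue and 41 with the liver slide as a block. With the replicate number as a block it was 60 (51 shared), with 26 called in liver alone and 24 in adipose tissue alone. Thresholds of 0.01 and 0.10 gave 20 and 260. The authors' normalized values gave 118 (87 shared).

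The liver count (433) was 229 with median centring, 698 with the authors' values, 285 without the filter, and 110 and 830 at 0.01 and 0.10. The adipose count (309) was 594 with no background correction, 181 with the authors' values, 690 without the filter, 133 with separate variances, and 118 and 668 at 0.01 and 0.10. Probes called in opposite directions (3) numbered 5 with the mean and SD background, 6 with an intensity trend and robust prior, 13 at 0.10 and 9 without adipose WT 1 and KO 5. Those called in liver alone (52) numbered 114 with the mean and SD background, 79 with quantiles over all 12 arrays, 24 with median centring, 79 with the authors' values, 84 with separate variances, 18 with the slide block, 5 and 115 at 0.01 and 0.10, and 33 without adipose WT 1 and KO 5. Those called in adipose tissue alone (44) numbered 104 with the mean and SD background, 93 with no correction, 23 with median centring, 25 with the authors' values, 125 without the filter, 12 with the slide block, and 7 and 107 at 0.01 and 0.10.

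Leaving out 1 array at a time gave 27 to 194 differences, 144 to 606 liver and 156 to 704 adipose calls, 2 to 8 in opposite directions, 7 to 98 in liver alone and 12 to 104 in adipose tissue alone. Of the named genes, the other probe of Fgfr1op2 reversed the sign (-0.19). Among the named genes' differences over all alternatives, 696 values kept their side of the threshold, 357 lost the call, 37 gained one that the reported setting did not give, and 1 reversed. Dim probes near background, among them Cav1 and Irak1 in liver, Serpina1b and Serpina1d in adipose WT, Aig1 and Fitm2, have sizes that depend on the background correction, and 3 arrays per group limit every call.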

Other observations

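Of 28 pathway lists, 12 held at least 1 called difference and 16 held none. A difference was called for 1.06% of all named genes, and the shortest lists compared 2 genes. A list without a call is therefore no result about its pathway. Oxidative phosphorylation had none among 45 genes, with a median effect of -0.24 in liver and -0.39 in adipose tissue, and the effects had opposite signs in 6 of the 45. The 11 genes of the tricarboxylic acid cycle had medians of -0.22 and -0.64, with opposite signs in none. Of 13 glycolysis genes, Pfkl (-0.98), Aldoa (-0.72) and Eno1 (-0.91) were called lower in adipose tissue, where 1.44% of all named genes were, with liver effects of 0.08, -0.32 and -0.61, and none of their differences was called. The 65 cytosolic ribosomal protein genes had medians of -0.04 in liver and 0.06 in adipose tissue and no called difference.

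Extracellular matrix genes had positive effects in liver for 12 of 12 and in adipose tissue for 10 of 12, with medians of 0.29 and 0.89, and none was called in either tissue or for the difference. Fibroblast markers had a summed log2 signal of 14.30 to 15.16 in adipose WT and 15.14 to 16.15 in adipose KO, most of it from Dcn. The markers did not all move together. Dcn, Col1a1 and Col3a1 had a higher mean in adipose KO than in adipose WT. Col1a2 had a lower one, with 9.55, 8.12 and 7.48 in adipose KO against 9.23, 10.02 and 9.23 in adipose WT. Except for Dcn, the adipose groups of these genes overlapped. Of 12 cholesterol synthesis genes none was called. Apoe, the lipoprotein ligand, fell in adipose tissue (-0.71 ± 0.14, limma adjusted p = 0.0185), with a liver effect of -0.04 and a difference of 0.68 (adjusted p = 0.145). Just short of the threshold lay Ppp1r3b, a glycogen-targeting phosphatase subunit that fell in adipose tissue to values not detected on any KO array (at least 2.02-fold; difference 1.95, adjusted p = 0.0505) and that passed the detection limit there only through the WT arrays, and H2-K1 (difference -1.19, adjusted p = 0.051).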
